A study of Kluyveromyces marxianus and Saccharomyces cerevisiae with 12 samples.

Results

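Among the loci of *Saccharomyces cerevisiae* EC1118, 65 had a high group mean at 6 h of an alcoholic fermentation and one at least 8-fold lower at 20 h. Of these, 59 were above 0 in all 6 samples, and 6 were above 0 in 6 h replicate 1 alone. The 65 were taken from the 6017 loci with an EC1118_ tag ending in g, of 6461 loci in the tables. The limits were a mean of at least 50 FPKM at 6 h and a ratio of (20 h + 1) to (6 h + 1) of at most 1/8. FPKM count fragments per length of transcript and per depth of library. Tags of the EC1118_1O4_ sequence that start within 80 kb of the largest end among them, 25 in all, were left out, and 1 of these met both limits. The 65 are 2.70% of the 2403 loci that reached the 6 h level. With median-of-ratios size factors in place of the FPKM as deposited, 107 loci met the rule, the 65 among them. The members were chosen by these 20 h and 6 h levels, so their falls are described below without a test.

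EC1118 is a commercial wine strain. The samples were 3 at 20 h and 3 at 6 h, all of this strain, grown at 25 °C in a medium with sugars at 230 g/l, assimilable nitrogen at 200 mg/l and phytosterols at 10 mg/l. Both groups shared strain, medium and temperature, and differed by the labels only in fermentation time. The labels number the samples as replicates without tying them to cultures, so the spread between them may be technical.

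Wine yeast grows and divides in the first part of a fermentation and stops dividing once the nitrogen it can use is taken up, while it goes on turning sugar into ethanol. Dividing yeast is known for a high demand for ribosomes, amino acids, membrane lipids and new cell wall, and the messages for these are known to decline when growth stops. Whether these loci belong to such groups cannot be read from the tables. They give the members by tag alone, 0 of the 65 tags matched an identifier in the annotation at hand, and no gene name or role is given to any of them here.

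In the whole genome 5712 loci had a mean of at least 1 FPKM and were tested with limma. The share called lower at 20 h, at a Benjamini-Hochberg adjusted p of 0.05, was 20.6%, and the share called higher was 39.7%. The median log2 ratio of 20 h to 6 h over these loci was 0.30, so the typical locus was somewhat higher at 20 h on this scale. Scaling the libraries by median-of-ratios size factors moved that median to -0.02, and the lower share of all calls was then 50.8% instead of 34.1%. Recovered depth was summed over the tables of a sample, in units of 1000000 fragments (M). It was 7.67, 6.39 and 5.498 M in 20 h replicates 1, 2 and 3, from 4, 6 and 3 tables. In 6 h replicates 1, 2 and 3 it was 21.6, 9.34 and 1.51 M, from 13, 6 and 1 tables, the last 1 of 3. Whether the tables of a sample share reads is not given in the labels, so these sums need not be the depth of a library. FPKM are shares of a library, so less RNA of a locus and more RNA of other loci cannot be told apart, nor can fewer expressing cells and less RNA per cell.

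The 65 loci fall into a set of 59 that were above 0 in all 6 samples and a set of 6 that were above 0 in 6 h replicate 1 alone. The 6 are described separately further on, and the statements that follow are about the 59. At 20 h the group means of the 59 lay between 2.81 and 676 FPKM with a median of 19.3 FPKM, against 50.2 to 6070.0 FPKM with a median of 359 FPKM at 6 h. Counted from the most abundant locus of the table, the median member ranked 4546th at 20 h and 536th at 6 h. They thus stood among the abundant transcripts of the early culture and, for the most part, in the lower part of the later one, where the median over all loci was 39.4 FPKM. Of the 59, 15 remained above that median at 20 h.

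**Figure D1:**
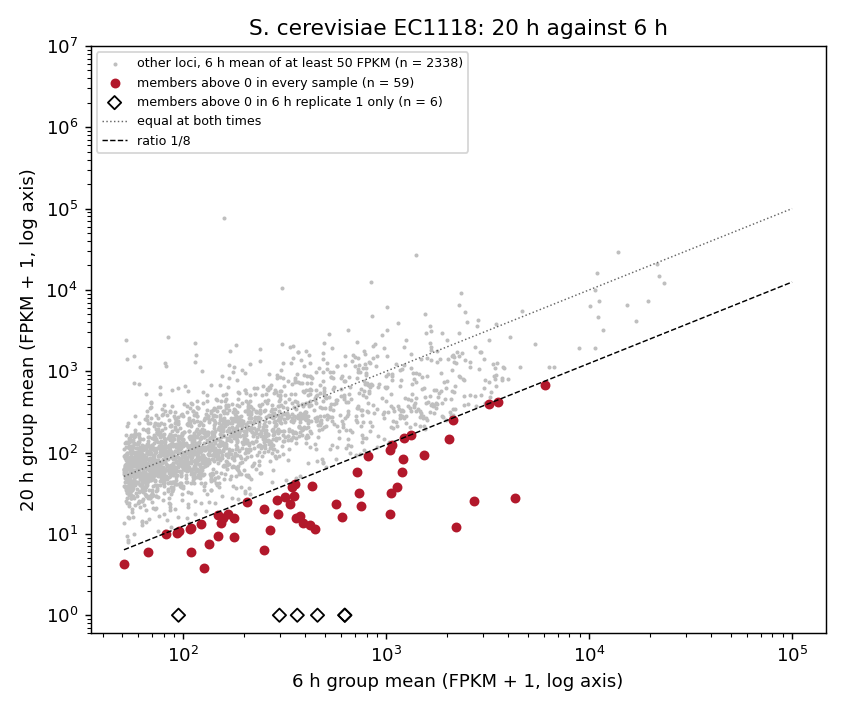
Group mean at 20 h (vertical, FPKM + 1, log axis) against the group mean at 6 h (horizontal, FPKM + 1, log axis) for the 2403 loci of at least 50 FPKM at 6 h. The 59 filled points lie on or under the dashed 1/8 line between 50.2 and 6070.0 FPKM at 6 h, and the 6 open diamonds, 2 of which coincide, lie at 0 FPKM at 20 h.

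The median fall of the 59 was 12.3-fold, and the falls ran from 8.03-fold to 180-fold. A fall of at least 16-fold was seen in 24, of at least 32-fold in 11 and of at least 64-fold in 3, so most members lay close to the limit of the rule: 35 were under 16-fold. Their median log2 ratio was -3.62, which is 3.92 below the median of all tested loci. With the 6 other loci counted in, the median log2 ratio of the 65 was -3.85, where the pseudocount sets the values of the 6. All 65 passed the filter on low values, and limma called the 59 lower and none of the 6, against 20.6% of all tested loci. The 20 h samples all lay below the 6 h samples in the same number, 59 of 65, against 23.6% of all tested loci, and nothing is read from either count because the rule used the same contrast.

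The distance between the groups was wide in most members. The rule asked for an 8-fold difference of the means and so favoured a wide distance, and nothing is read from its size. Positions here and below are those of the tables, whose assembly is not named. Set as the lowest 6 h sample over the highest 20 h sample, the distance had a median of 9.65-fold. It was at least 8-fold in 37 of the 59. The smallest gap was that of EC1118_1K5_3334g (chromosome XI, 561390 to 563165), with 32.5, 34.1 and 45.1 FPKM in 20 h replicates 1, 2 and 3, against 522, 328 and 176 FPKM in 6 h replicates 1, 2 and 3. Its lowest 6 h sample was still 3.90-fold above its highest 20 h sample.

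**Figure D2:**
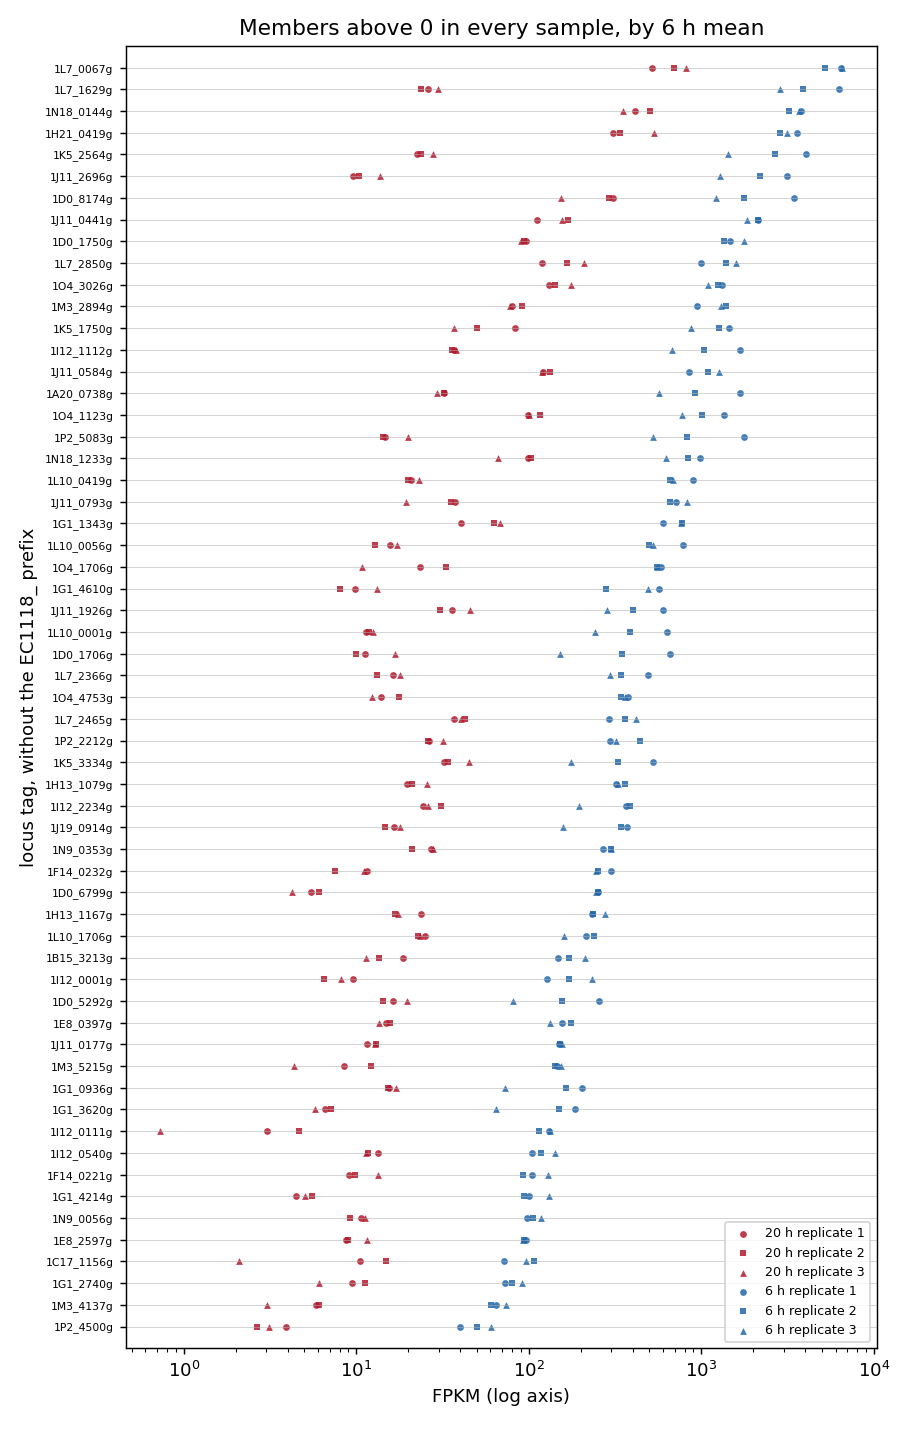
FPKM (log axis) of the 59 members above 0 in every sample, one row per locus, ordered by the 6 h mean. Each row has 3 red points (20 h replicates) and 3 blue points (6 h replicates). In every row the red points lie left of the blue ones, and the spread of the blue points differs between rows.

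The 59 loci made up 0.324, 0.353 and 0.311% of all summed FPKM in 20 h replicates 1, 2 and 3, against 5.33, 4.23 and 3.74% in 6 h replicates 1, 2 and 3. The mean share was 0.329 ± 0.0218% at 20 h and 4.43 ± 0.812% at 6 h (SD, n = 3 each). Nothing is read from the gap between the groups, since each locus was chosen as at least 8-fold lower at 20 h. The 20 h samples were closer to each other than the 6 h samples, of which replicate 1 was the highest. With all 65 loci the 20 h mean was the same, and the 6 h mean was 4.65 ± 1.18% (SD, n = 3), since replicate 1 then stood at 5.98%. At 6 h the 5 most abundant members held between 37.7 and 40.9% of the sum of the 59 in each sample.

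**Figure D3:**
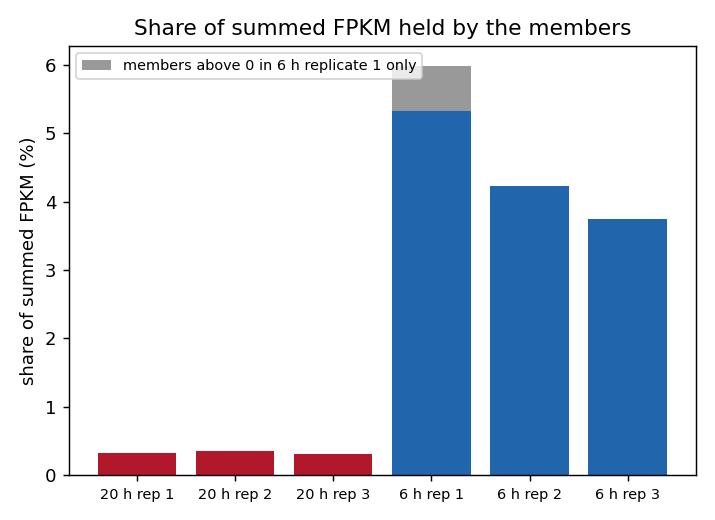
Share of all summed FPKM held by the members (vertical, percent) in each sample, with the 3 samples of 20 h in red and the 3 of 6 h in blue. The grey part is the 6 loci above 0 in 6 h replicate 1 only. The 20 h bars stand at 0.311 to 0.353% and the coloured parts of the 6 h bars at 3.74 to 5.33%.

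The 8 members with the highest 6 h level included both modest and steep falls. The most abundant at 6 h was EC1118_1L7_0067g, a short locus of 459 nt (sequence FN393080, 8880 to 9338). It had 518, 698 and 812 FPKM in 20 h replicates 1, 2 and 3, against 6458, 5179 and 6573 FPKM in 6 h replicates 1, 2 and 3, which is 8.97-fold lower. It was also the highest member at 20 h, at 676 ± 148 FPKM, against 6070.0 ± 773 FPKM at 6 h (SD, n = 3 each), so a strong fall left it well above the typical locus. Another short locus, EC1118_1N18_0144g (312 nt, sequence FN393083, 25598 to 25909), had 415, 502 and 351 FPKM at 20 h, against 3799, 3208 and 3694 FPKM at 6 h, 8.42-fold lower. The third short one, EC1118_1H21_0419g (366 nt, sequence FN393072, 70816 to 71181), had 307, 339.9 and 534 FPKM at 20 h, against 3591, 2872 and 3120.4 FPKM at 6 h, 8.10-fold lower. In these 3, in the order given, the coefficient of variation at 6 h was 12.7, 8.84 and 11.4%. Their falls ran from 8.10 to 8.97-fold.

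One more short locus among these 8, EC1118_1J11_0441g (393 nt, sequence FN393075, 76342 to 76734), had 112, 169 and 155 FPKM at 20 h, against 2140.2, 2135 and 1830.2 FPKM at 6 h, and was 13.9-fold lower. The locus EC1118_1D0_8174g (1155 nt, sequence FN393063, 1305842 to 1306996) had 309, 291 and 153 FPKM at 20 h, against 3429, 1771 and 1224 FPKM at 6 h. In it both times were uneven, with 20 h replicate 3 the lowest of its group and 6 h replicate 1 far above the other 6 h samples, and the fall in the means was 8.50-fold. The remaining 3 of the 8 were also the 3 steepest falls. Of the 59, 18 had a 6 h mean of at least 1000 FPKM, and their falls had a median of 14.2-fold and a range of 8.03 to 180-fold. The other 41 had a median fall of 12.1-fold.

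The steepest fall was that of EC1118_1J11_2696g (1536 nt, sequence FN393075, 451244 to 452779). It had 9.63, 10.3 and 13.7 FPKM in 20 h replicates 1, 2 and 3, against 3131, 2196 and 1277 FPKM in 6 h replicates 1, 2 and 3, a fall of 180.3-fold between the means. The next was EC1118_1L7_1629g (1335 nt, sequence FN393080, 230903 to 232237), with 26.2, 23.6 and 30.0 FPKM at 20 h, against 6244, 3860.0 and 2867 FPKM at 6 h, 157-fold lower. Then came EC1118_1K5_2564g (609 nt, chromosome XI, 429287 to 429895), with 22.5, 23.6 and 28.0 FPKM at 20 h, against 4055, 2682 and 1422 FPKM at 6 h, 106-fold lower. These 3 were among the most abundant transcripts of the set at 6 h and under the median of all loci at 20 h. In each of them the 20 h samples lay within 1.5-fold of each other, while 6 h replicate 1 was more than 2 times 6 h replicate 3. After them came EC1118_1P2_5083g (chromosome XVI, 838345 to 839130) with the same form, 14.8, 14.2 and 20.0 FPKM at 20 h, against 1768, 823 and 524 FPKM at 6 h, 60.0-fold lower.

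The other 4 of the 8 steepest were more even at 6 h or had another sample out of step. The locus EC1118_1D0_6799g (sequence FN393063, 1087363 to 1089270) had 5.46, 6.07 and 4.23 FPKM at 20 h, against 251, 253 and 245 FPKM at 6 h, 40.1-fold lower. Its 6 h samples differed by less than those of any other of the 59, with a coefficient of variation of 1.54%. The locus EC1118_1G1_4610g (chromosome VII, 746936 to 748168) had 9.83, 8.10 and 13.2 FPKM at 20 h, against 569, 279 and 493 FPKM at 6 h, 39.4-fold lower, and here 6 h replicate 2 was the low sample. The locus EC1118_1L10_0056g had 15.8, 12.8 and 17.2 FPKM at 20 h, against 783, 498 and 524 FPKM at 6 h, 37.1-fold lower. The locus EC1118_1L10_0419g had 20.8, 20.0 and 23.1 FPKM at 20 h, against 894, 660.5 and 689.6 FPKM at 6 h, 33.6-fold lower. In both of these 6 h replicate 1 was the highest and the other 6 h samples were close to each other.

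Few members stayed abundant, and 14 of the 59 kept at least 50 FPKM at 20 h. All 14 had a 6 h mean of at least 714 FPKM, and at such 20 h levels the ratio limit by itself asks for a high 6 h mean. The falls of the 14 ran from 8.03 to 20.7-fold with a median of 9.01-fold. The 5 highest at 20 h were EC1118_1L7_0067g, EC1118_1N18_0144g, EC1118_1H21_0419g, EC1118_1D0_8174g and EC1118_1L7_2850g. The last of these (691 nt, sequence FN393080, 430689 to 431379) had 119, 166 and 208 FPKM at 20 h, against 996, 1391 and 1591 FPKM at 6 h, and at 8.03-fold it was the smallest fall in the set. Its samples ran in the opposite direction to those of the steepest members, with 6 h replicate 1 the lowest. At the other end 11 of the 59 were under 10 FPKM at 20 h, and their 6 h means lay between 50.2 and 249.7 FPKM, so they were among the less abundant members at 6 h as well.

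The members differed among themselves in how well the 6 h samples agreed. The rule used only the mean of the 6 h samples, but a high sample raises that mean, so the counts that follow are a description. Of the 3 tables of 6 h replicate 3, 2 list upper bounds below the FPKM at 1865 and 1882 loci, and their FPKM were kept in the mean. The tables of that sample differed by a median coefficient of variation of 3.15% over the 59. Among the 59, 15 had at least 2 times as much in 6 h replicate 1 as in 6 h replicate 3, or 25.4%. Among the 2397 loci of at least 50 FPKM at 6 h that were not limited to replicate 1, the members included, it was 57, or 2.38%. The reverse, replicate 3 at 2 times replicate 1 or more, was found in 0 of the 59 and in 76 of the 2397, or 3.17%. All 3 samples of 6 h lay within 1.25-fold of each other in 16 of the 59, or 27.1%, against 46.2% of the 2397. The median coefficient of variation of the 59 was 17.8% at 20 h and 19.1% at 6 h, against 15.2% at 20 h and 12.5% at 6 h over the 2403 loci.

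**Figure D4:**
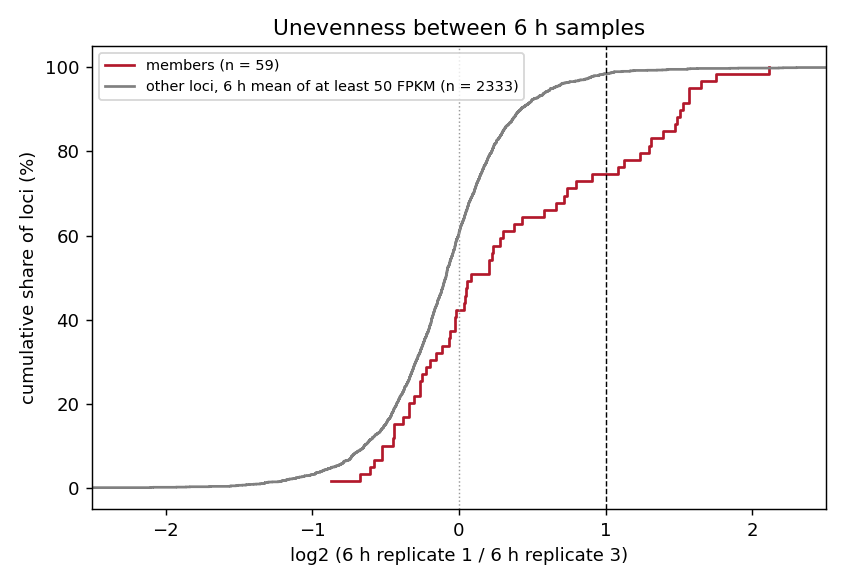
Cumulative share of loci (vertical, percent) by the log2 ratio of 6 h replicate 1 to 6 h replicate 3 (horizontal, drawn from -2.5 to 2.5), for the 59 members in red and the other loci of at least 50 FPKM at 6 h in grey, without those at 0 in either sample. Right of the dashed line, at a ratio of 2, lie 25.4% of the members.

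The widest relative range at 6 h belonged to EC1118_1D0_1706g (sequence FN393063, 251382 to 252098). It had 11.3, 10.0 and 16.8 FPKM at 20 h, against 660.5, 349 and 152 FPKM at 6 h, so that 6 h replicate 1 was 4.33 times replicate 3 while the range of the 20 h samples was narrower. The fall between its means was 28.3-fold. The locus EC1118_1A20_0738g (sequence FN393058, 116339 to 117523) had 32.2, 32.2 and 29.2 FPKM at 20 h, against 1679, 922 and 565 FPKM at 6 h, 32.8-fold lower. The locus EC1118_1D0_5292g (sequence FN393063, 834495 to 835070) had 16.3, 14.3 and 19.8 FPKM at 20 h, against 255, 156 and 81.3 FPKM at 6 h, 9.30-fold lower. In both, replicate 1 was about 3 times replicate 3 at 6 h and 6 h replicate 2 lay between them. The other 2 of the 5 widest, EC1118_1P2_5083g and EC1118_1D0_8174g, are given above.

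The 15 uneven members had a median fall of 28.3-fold, with a range of 8.50 to 180-fold. The other 44 had a median of 11.8-fold, with a range of 8.03 to 40.1-fold. A high 6 h replicate 1 enters both this split and the fall, so nothing is read from the distance between these medians. Of the 8 steepest falls 4 were among the 15. At 20 h the samples of 13 of the 15 lay within 1.5-fold of each other, so the unevenness was mostly a feature of the 6 h samples. Taken alone, 6 h replicate 3 was at least 8 times the 20 h mean in 10 of the 15. Replicate 1 was so in all 15, which the choice had fixed. It was the highest 6 h sample in each of them, and the rule already set their 6 h mean at 8 times or more. Among the other 44 the count was 38 for replicate 3 and 38 for replicate 1. Without 6 h replicate 1 the rule gave 62 loci, 53 of them among the 65. The 12 members lost include the 6 loci above 0 in that sample alone. Leaving out any other single sample lost 2 to 5 members. EC1118_1H21_0419g, EC1118_1O4_3026g and EC1118_1D0_8174g, lost without 6 h replicate 1, were each also lost without another sample. Summed over tables, replicate 1 had the most recovered fragments of the 6 h samples, from 13 tables, and replicate 3 the fewest, from 1 table. Single tables were closer, with 1.79 to 1.92 M in most tables of replicate 1 and 1.51 M in that of replicate 3. The part of depth in these differences was not tested.

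Among the members whose 6 h samples were nearly equal, the falls were of the same order as in the whole set, with a median of 13.1-fold and a range of 8.10 to 40.1-fold over the 16. Next to EC1118_1D0_6799g, the most even were EC1118_1E8_2597g (sequence FN393067, 390610 to 392331) and EC1118_1J11_0177g (sequence FN393075, 33608 to 34603). The first had 8.74, 9.01 and 11.6 FPKM at 20 h, against 95.8, 93.6 and 92.7 FPKM at 6 h, 8.82-fold lower. The second had 11.6, 13.1 and 12.9 FPKM at 20 h, against 149.9, 151 and 156 FPKM at 6 h, 11.3-fold lower. Both lay below the median level of the 59 at each time, and their samples of each time lay within 1.5-fold of each other.

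Six-hour signal in a single sample set the remaining 6 loci apart. They were listed at 0 in every table of the other 5 samples and in most tables of 6 h replicate 1. That sample has 13 tables, and the 6 loci were above 0 in 4 or 5 of them. No fold is given for them, since the pseudocount would set it. Their values of 0 were not marked LOWDATA or FAIL, and whether they stand for absence of RNA is not known. The loci EC1118_1B15_2674g (chromosome II, 450546 to 451922) and EC1118_1P2_4038g (chromosome XVI, 671521 to 672897), both of 1377 nt, had 4812 to 4902 FPKM in 5 tables, with nearly the same value in each table, and averaged 1872 FPKM each over the 13. How reads that match both loci were assigned is not stated, so the 2 values may not be independent.

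Of the 6, 3 lie at the start of one sequence. The locus EC1118_1H13_0012g (sequence FN393071, 1380 to 1574) had 2613 to 3097 FPKM in 5 tables. The locus EC1118_1H13_0023g (sequence FN393071, 1405 to 1590), which overlaps it, had 2149 to 2438 FPKM. The locus EC1118_1H13_0045g (sequence FN393071, 3232 to 3417), a little further in, had 3443 to 3703 FPKM. The sixth, EC1118_1A20_0364g (sequence FN393058, 57856 to 58830), had 861 to 999 FPKM in 4 tables. Over all loci 18 were above 0 in all 5 of these tables and at 0 in the other 30. What sets these tables apart is not given in the labels. Of the loci without a tag ending in g, 5 met the same limits of level and ratio, among them the ribosomal RNA loci EC1118_1L10_RDN25-1 and EC1118_1L10_RDN25-2. These 2 averaged 1594 and 2254 FPKM in 6 h replicate 1 and were at or near 0 in the other samples. Leaving out the 5 tables, an alternative chosen after seeing the data, gave 60 loci by the rule, the 59 and 1 more.

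**Figure D5:**
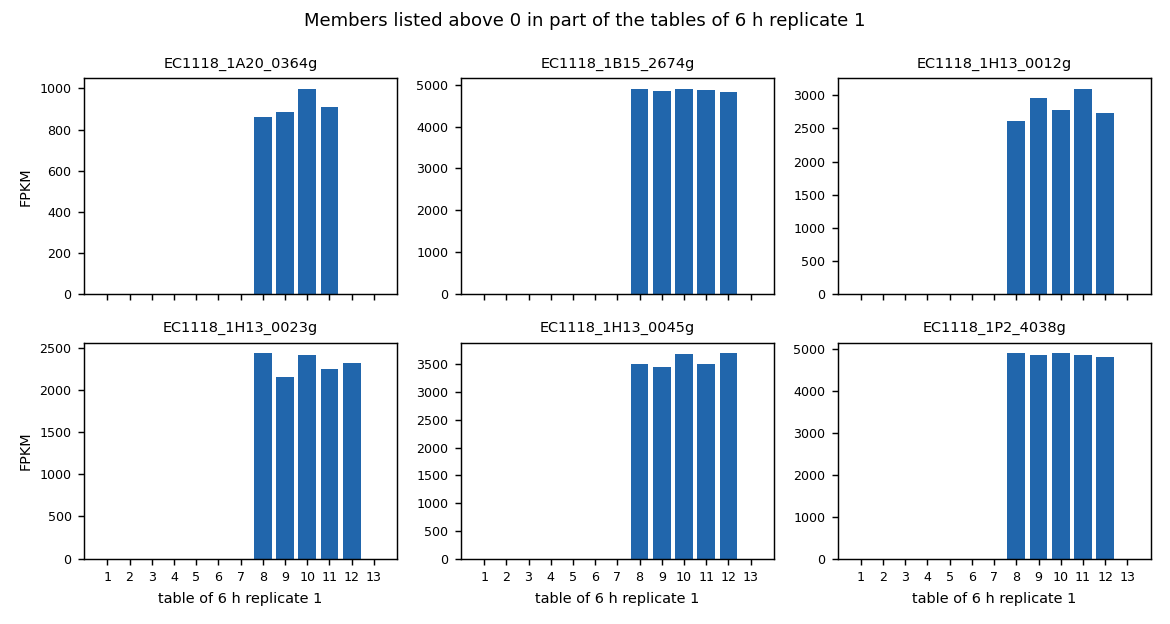
FPKM (vertical, from 0) of the 6 loci in each of the 13 tables of 6 h replicate 1 (horizontal), one panel per locus. The bars stand in 4 or 5 tables and are at 0 in the rest.

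The members were spread over the genome. They lay on 20 of the 31 sequences of the tables, with at most 6 on any of them, and 4 of them had another member as the nearest tagged locus. Of these 4, 2 are the overlapping pair EC1118_1H13_0012g and EC1118_1H13_0023g. The other pair was nested: EC1118_1F14_0232g (sequence FN393068, 45939 to 46424) lies inside EC1118_1F14_0221g (sequence FN393068, 45886 to 47781). The inner locus had 11.6, 7.50 and 11.1 FPKM at 20 h, against 301, 253 and 245 FPKM at 6 h, 24.2-fold lower. The outer one had 9.08, 9.89 and 13.4 FPKM at 20 h, against 104, 92.6 and 129 FPKM at 6 h, 9.28-fold lower. The protocol does not state a stranded library, so reads of overlapping loci cannot be told apart.

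Of the 59, 7 overlapped another locus, or 11.9%, against 16.6% of all tagged loci. In 2 of them a partner that lies wholly inside was listed at 0 in all 6 samples. One of these, EC1118_1M3_2894g (sequence FN393082, 468992 to 470224), holds the span of EC1118_1M3_snR24, a small nucleolar RNA of the kind that guides the modification of ribosomal RNA. The member had 79.6, 90.8 and 77.8 FPKM at 20 h, against 945, 1382 and 1292 FPKM at 6 h, 14.4-fold lower. All its 20 h samples lay far under its 6 h samples. The enclosed RNA locus was listed at 0 in all 6 samples, and whether this stands for absence of its RNA is not known. The other, EC1118_1H13_1079g (sequence FN393071, 164396 to 165937), had 19.7, 21.0 and 25.6 FPKM at 20 h, against 322, 359 and 327 FPKM at 6 h, 14.6-fold lower, and encloses EC1118_1H13_1090g.

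Most loci on either side of the members were not called lower. Of 108 tested neighbours that were no members, limma called 31 lower at 20 h, or 28.7%, against 20.6% of all tested loci, and their median log2 ratio was 0.06, against 0.30 over all tested loci. At a ratio of 1/4 or less there were 6, or 5.56%, against 5.39% of all tested loci. They were EC1118_1J11_0452g, EC1118_1J11_2685g, EC1118_1L10_0045g, EC1118_1M3_2905g, EC1118_1N18_1244g and EC1118_1B15_3224g. The neighbour EC1118_1J11_2685g averaged 1944 FPKM at 20 h and 8935 FPKM at 6 h, and lies beside the steepest member, EC1118_1J11_2696g. The neighbour EC1118_1J11_0452g, beside EC1118_1J11_0441g, averaged 1139 FPKM at 20 h and 6720.1 FPKM at 6 h. EC1118_1J11_2685g and EC1118_1J11_0452g were thus abundant at both times, and their falls were smaller than those of the members beside them. Not all of the 6 were abundant, as EC1118_1M3_2905g averaged 3.69 FPKM at 20 h and 18.7 FPKM at 6 h.

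Of the loci of at least 50 FPKM at 6 h, 2.70% were members in the whole genome. Among sequences with at least 5 members it was 5 of 63, or 7.94%, on sequence FN393071, where 3 of the 5 are loci above 0 in 6 h replicate 1 alone. It was 6 of 97, or 6.19%, on sequence FN393075, 5 of 82, or 6.10%, on chromosome IX, 5 of 122, or 4.10%, on sequence FN393080, 6 of 230, or 2.61%, on chromosome VII and 5 of 289, or 1.73%, on sequence FN393063. Of the sequences with fewer members, FN393058 had the highest share, 2 of 27, or 7.41%. On sequence FN393078, 3 of its 4 members, EC1118_1L10_0001g, EC1118_1L10_0056g and EC1118_1L10_0419g, lay between positions 552 and 81722. These 3 were all more than 32-fold lower at 20 h, and the fourth member, EC1118_1L10_1706g, was 8.32-fold lower. The outermost of the 3, EC1118_1L10_0001g, had 11.3, 11.8 and 12.5 FPKM at 20 h, against 634, 388 and 241 FPKM at 6 h, 32.8-fold lower. Another member begins at the first base of its sequence, EC1118_1I12_0001g (chromosome IX, 1 to 1577), with 9.55, 6.53 and 8.15 FPKM at 20 h, against 127, 170.0 and 232 FPKM at 6 h, 19.5-fold lower. In the 59, 6 lay within 20 kb of the first base of their sequence or of the largest locus end on it. That is 10.2%, against 6.45% of the 2403 loci.

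The spans of the 59 ran from 237 to 4326 nt with a median of 1155 nt, against a median of 933 nt over the 2403 loci. Under 400 nt were 6 of the 59, or 10.2%, against 12.6%. Across the 59, shorter loci had higher 6 h levels, with a Spearman's rho of -0.46 across loci, and over the 2403 loci it was -0.24. These are descriptions across loci that share libraries, and the length of a locus also enters its FPKM.

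The members rested on few fragments in part of the 20 h samples, as low levels there were part of the rule. Fragments were summed over the tables of a sample. Their median over all pairs of a member and a 20 h sample was 151, and 29 of the 59 had under 100 fragments in at least one 20 h sample. The fewest belonged to EC1118_1I12_0111g (chromosome IX, 21685 to 22299), with 3.04, 4.65 and 0.731 FPKM at 20 h, against 131, 114 and 133 FPKM at 6 h, 33.3-fold lower. Its value in 20 h replicate 3 rests on 2 fragments, so the size of its fall is loosely set. With EC1118_1C17_1156g and EC1118_1O4_1706g it is one of 3 members in which 20 h replicate 3 was no more than 1/2 of either other 20 h sample. The first of these had 10.4, 15.0 and 2.08 FPKM at 20 h, against 71.5, 108 and 96.9 FPKM at 6 h, and the widest relative spread of the 59 at 20 h. The second had 23.4, 33.1 and 10.7 FPKM at 20 h, against 587, 555 and 554 FPKM at 6 h, and a narrow range at 6 h.

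The limits of the rule cut through a continuous range. Just inside the ratio limit were EC1118_1L7_2850g at 8.03-fold, EC1118_1H21_0419g at 8.10-fold and EC1118_1O4_3026g at 8.10-fold. Just outside it were EC1118_1B15_4797g at 7.98-fold, EC1118_1J19_0408g at 7.96-fold and EC1118_1B15_3532g at 7.82-fold. The last of these averaged 249.6 ± 25.9 FPKM at 20 h and 1960.0 ± 277 FPKM at 6 h (SD, n = 3 each), and so was more abundant than most members at both times. Just inside the level limit were EC1118_1P2_4500g at 50.2, EC1118_1M3_4137g at 66.2 and EC1118_1G1_2740g at 81.5 FPKM at 6 h. Just outside it were EC1118_1O4_5545g at 42.8, EC1118_1I12_1442g at 36.1 and EC1118_1M3_1959g at 34.5 FPKM at 6 h.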

How the data were processed

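RNA from 6 samples was analysed, 3 at 20 h and 3 at 6 h; total RNA was extracted with phenol and 1 µg went into a TruSeq V2 library, per the labels' protocols. Tools in the submitters' processing notes are Cuffdiff 2.2.1.5, Cufflinks 2.2.1.2, TopHat2 2.0.8, FastQC 0.10.1 and Trim Galore 0.4.3.1, without roles. For genome build and annotation, the sources used here give none. What the authors deposited was 35 tables of FPKM for these samples, 3 to 13 per sample, with lower and upper bounds, per the file headers in the Cufflinks gene tracking layout. What distinguishes a sample's tables is not in the labels, and they were averaged to 1 value per locus and sample. Of 226135 values, 126 marked LOWDATA or FAIL were treated as missing, which touched 1 member, EC1118_1F14_0232g, in 2 tables. Positions are those of the tables, written 1-based, as spans without exon structure.

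Fragment numbers were recovered from each value and its upper bound, as the square of 2 FPKM over (bound - FPKM), in 33 of the 35 tables; a median of 76.0% of values below 5.5 fragments came out whole within 0.02. In the other 2 tables, both of 6 h replicate 3, the upper bound lay below the FPKM at 1865 and 1882 loci. Fragment numbers and depths were summed over the tables of a sample and are approximate.

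Loci with a mean of at least 1 FPKM were fitted on log2(FPKM + 1) in limma 3.58.1 (R 4.3.3) as 20 h minus 6 h, with the trend of variance on intensity, with Benjamini-Hochberg adjustment at 0.05 over the table, checked on simulated data. Folds are ratios of (mean FPKM + 1) and understate changes of low loci. The calls serve as background. The p-values behind them measure only the spread between these samples. The members and lists were chosen with earlier results of these data known. Named are the 8 highest at 6 h, the 8 steepest, the 5 highest at 20 h, the 5 widest at 6 h, adjacent members, loci nearest each limit and members at 0 at 20 h. The members named as most even, overlapping, near a sequence end, with the smallest gap, with the fewest fragments or with the most uneven 20 h samples, and the neighbours, were chosen after their values were seen. Of 14 gene lists with 247 symbols, 0 symbols matched a locus, so no list was counted. The named loci most like the members in pattern were not sought, since the samples form separate groups by time. Alternatives were other scalings, pseudocounts, limits, ways of combining tables and left-out samples.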

Additional observations from a re-analysis of the deposited data

How the results depend on the processing

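The number of loci that meet the rule was 65 as reported, 107 with median-of-ratios size factors (all 65 among them, since this scaling lowers the 20 h values relative to those at 6 h), 220 at a ratio of 1/4 and 30 at a ratio of 1/16. It was 52 with a pseudocount of 5 and 80 with upper quartile scaling. Leaving out 1 sample in turn gave 62 to 73 loci, 2935 to 3433 loci called by limma, a median log2 ratio of -3.92 to -3.63 for the 65, and a mean share of summed FPKM of 0.317 to 0.339% at 20 h and 3.99 to 5.11% at 6 h. Without the 6 loci above 0 in 6 h replicate 1 only, a choice made after seeing the data, 2 members instead of 4 had another member as neighbour. Sample numbers are shared between the times in the labels. The correlation of deviations between samples of the same number was -0.12, 0.17 and 0.03. Not every sample correlated best with its own number, and what the numbers stand for is not given in the labels, so the samples were not treated as pairs. With a replicate block limma called 3239 loci, against 3444 without it. The depth of 6 h replicate 3 is known for 1 of its 3 tables.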
